A study of Homo sapiens with 10 samples.

Results

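Gene expression in cells stimulated with Hepatocyte Growth Factor (HGF) for 24 h was compared with that of untreated cells, on 2 Affymetrix hgu133a arrays per condition. These 4 arrays were chosen by their titles and treatment labels from the 10 Affymetrix arrays of the study. Genes that passed a filter on low values over all 10 arrays were described in both directions. The cells were MDA-MB-435, a human line whose labels give the cell type as melanoma, and untreated cells carry the treatment label none. The dose of HGF, a vehicle and the serum conditions are not given in the sources used here, and whether untreated cells were collected at the start or together with the 24 h cells is not given either. The study names the arrays of a condition biological duplicates. All of them come from a single line, and duplicates cannot give a gene an exact two-sided permutation p below 0.333. In bulk RNA, a change in the share of cells that express a gene and a change in its RNA per cell cannot be told apart. The other 6 arrays contributed to the estimate of the spread within groups. They hold HGF-treated cells at 1 h and at 6 h, and cells transduced with integrin beta4 (ITGB4).

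HGF is a secreted factor, made mainly by mesenchymal cells, that activates the receptor tyrosine kinase MET on neighbouring cells. MET recruits adaptors such as GRB2 and GAB1 and signals through the RAS-ERK and phosphatidylinositol 3-kinase pathways, which drive proliferation, dissociation of cells from each other, motility and invasion. The early transcriptional answer to such a stimulus consists of immediate-early regulators, and genes for metabolism, protein synthesis and the cytoskeleton follow. In the melanocyte lineage HGF is a known mitogen.

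Of 22283 probe sets, 10176 passed the filter on low values, which asks for a level of at least 7.3 on at least 2 of the 10 arrays, and those with exactly 1 gene symbol stand for 6390 genes. Levels are the authors' RMA values, which are on the log2 scale, so that a difference of 1 is a 2-fold change. The differences after 24 h were small and were larger downward than upward. Between the 24 h mean and the untreated mean, the lowest difference was -1.32 and the highest 0.97, and 98% of the probe sets lay between -0.70 and 0.40. The median was 0.0031. Differences of -1 or lower were found for 17 probe sets and of 1 or higher for 0, and those of at least 0.5 in size numbered 373 downward and 23 upward.

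The asymmetry was present on each array, but its size depended on the array, as the counts with 1 array left out, given below, also show. HGF 24 h replicate 1 lay at least 0.5 below the untreated mean for 499 probe sets and at least 0.5 above it for 40. For replicate 2 these numbers were 594 and 175, so the upward side was wider on replicate 2 than on replicate 1. The 24 h arrays differed from each other with an SD of 0.259 over the probe sets, and the untreated arrays with an SD of 0.195. Duplicates were uneven too. At 24 h, replicate 1 lay at least 0.5 below replicate 2 for 442 probe sets and above it for 196. In untreated cells these numbers were 170 and 52. The 1 h mean lay at least 0.5 below the untreated mean for 1040 and above it for 99, and the 6 h mean for 383 and 625. In 2222 probe sets (21.8%) both 24 h arrays lay above both untreated arrays, and in 2461 (24.2%) both lay below. Differences downward were most frequent at middle levels. A lower level at an unadjusted limma p under 0.05 was found for 10.4% of the probe sets with an untreated level of 9 to 10, and for 1.5% of those at 12 or more.

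**Figure D1:**
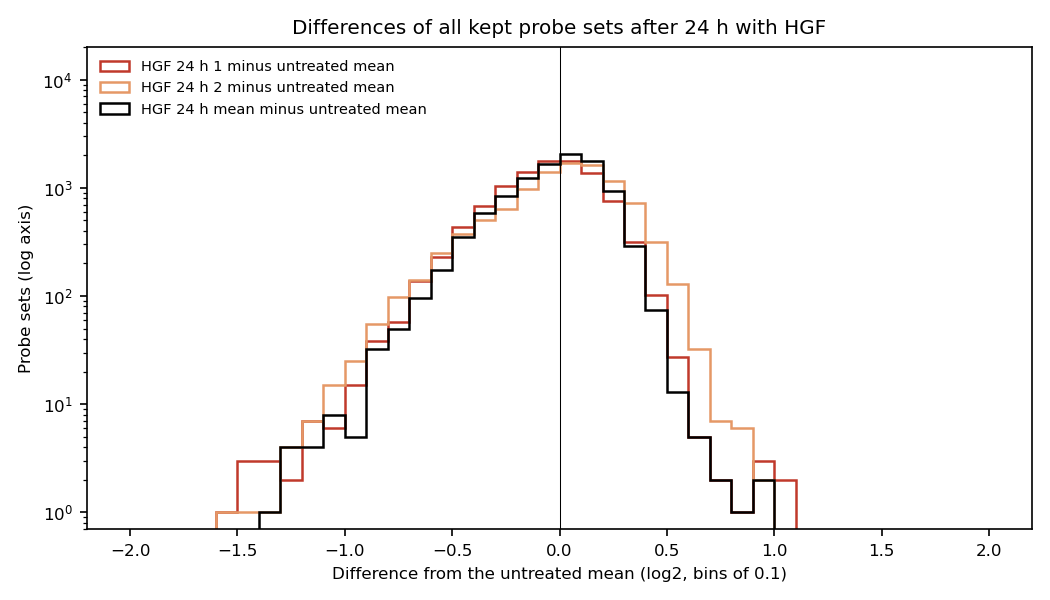
Number of kept probe sets (vertical axis, logarithmic) by difference from the untreated mean on the log2 scale (horizontal axis, bins of 0.1), for HGF 24 h replicate 1, replicate 2 and their mean. The left tail reaches further than the right in all 3 outlines, and replicate 2 has the wider right side, with 175 probe sets at 0.5 or more against 40 for replicate 1.

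No probe set passed limma at an adjusted p under 0.05 (0 of 10176, 0%), and the lowest adjusted p was 0.346. At an unadjusted p under 0.05 there were 1134, of which 321 were higher (3.15%) and 813 lower (7.99%), and in 1127 of them the 24 h arrays did not overlap the untreated arrays. Counted by gene, with 1 representative probe set each (the brightest one kept), 210 of 6390 were higher (3.29%) and 467 lower (7.31%). For 1449 genes (22.7%) both 24 h arrays lay above and for 1504 (23.5%) below both untreated arrays. Among genes with several kept probe sets, 397 had 1 or more at an unadjusted p under 0.05, and in 364 of those all kept probe sets differed in the same direction.

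Some genes passed a threshold when the adjustment, the source of the spread or the test was changed, and under these 3 settings all of them were lower. Adjustment over the 4 comparisons with untreated cells together called 17 probe sets (0.167%), of 15 named genes and 1 without a single gene symbol. That adjustment ranks the 24 h p-values together with those of the 1 h, 6 h and ITGB4 comparisons. Its error rate holds over the 4 comparisons and not for 24 h alone. Without the ITGB4 arrays in the estimate of the spread, limma called 10 (0.0983%). The study's own Mulcom test, a Dunnett-type statistic with a minimal difference, called 5 (0.0491%). They belong to HSPH1, UGCG, DNAJA1, ELOVL6 and SLC38A6, and all 5 were among the 17. For UGCG Mulcom called only the dimmer probe set, whose means were both under the filter level of 7.3. The 24 h means of ELOVL6 and SLC38A6 also lay under it, at 7.28 and 6.79. The first setting shared 5 probe sets with the second, and Mulcom shared 4 with the second. In the counts over gene lists, higher and lower mean at an unadjusted limma p under 0.05. These counts stand against 3.29% higher and 7.31% lower among all genes. Counts of arrays that do not overlap stand against 22.7% above and 23.5% below. No list was tested. Genes are therefore described by their differences with the standard error from limma. None of the differences from untreated cells passed an adjusted p of 0.05 in that comparison alone, and the 24 genes with the largest differences had an adjusted p from 0.346 to 0.404.

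**Figure D2:**
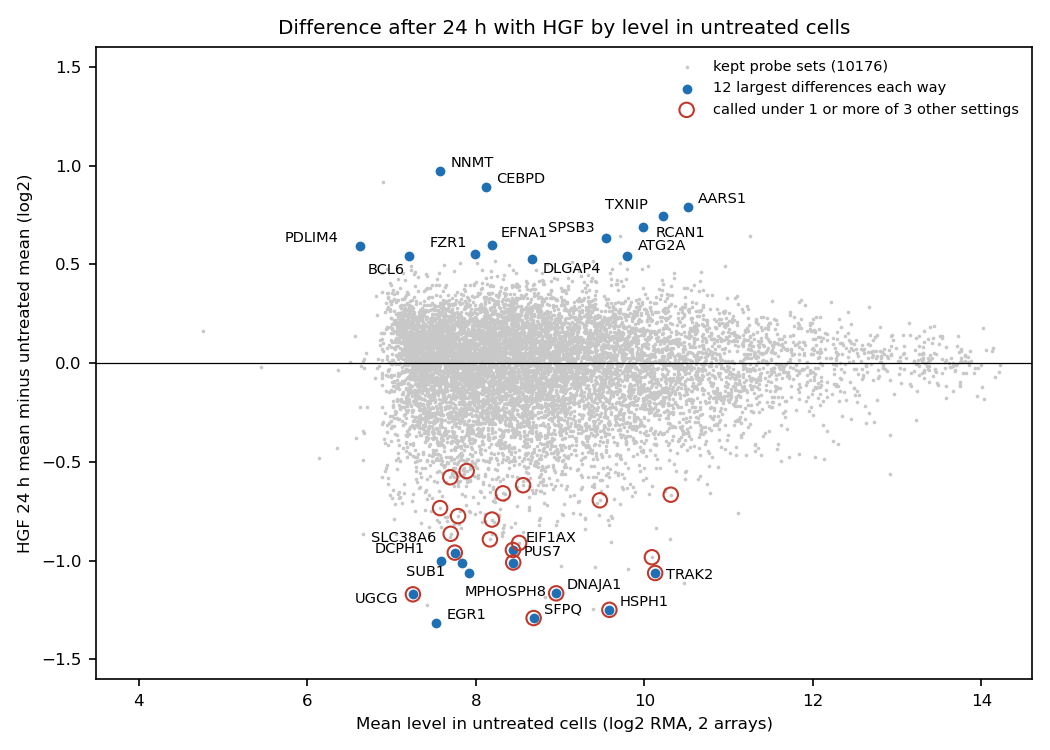
Difference between the HGF 24 h and untreated means (vertical axis, log2) against the untreated mean level (horizontal axis, log2 RMA value) for the 10176 kept probe sets in grey. Blue points are the 12 largest differences each way whose arrays do not overlap between conditions, from EGR1 at -1.32 to NNMT at 0.97, and red rings mark the named probe sets called with adjustment over the 4 comparisons, without the ITGB4 arrays or by Mulcom, all of them below 0.

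Among the lowest genes were 2 cytosolic chaperones. HSPH1, the large HSP110 chaperone that acts as a nucleotide exchange factor for HSP70, was at 9.66 and 9.51 in untreated cells and at 8.17 and 8.51 after 24 h. The difference was -1.25 (standard error 0.23, n = 2), or 2.38-fold. The limma adjusted p was 0.346 for 24 h alone, 0.0317 over the 4 comparisons and 0.0535 without the ITGB4 arrays. Both of its kept probe sets were lower. DNAJA1, an HSP40 co-chaperone that delivers unfolded clients to HSP70, was at 8.99 and 8.92 and then at 7.81 and 7.77. The arrays of each condition lay close together, and the difference was -1.17 (standard error 0.21). The limma adjusted p of DNAJA1 was 0.346 for 24 h alone, 0.0317 over the 4 comparisons and 0.00989 without the ITGB4 arrays. Its brighter probe set differed by -0.66 (standard error 0.22). CHORDC1, a co-chaperone of HSP90, was at 7.99 and 7.81 and then at 7.55 and 7.04, a difference of -0.60 (standard error 0.25).

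Genes for chaperones can be driven by heat shock factor through the heat shock element, whose core is written here as GAANNTTC or TTCNNGAA, searched on both strands. The 250 bases before the start of these 3 genes are shown with every match in capitals, because the genes belong to 1 chaperone system and their levels lay lower together. The sequences are from RefSeq on GRCh38.p14, written 5′ to 3′ along the gene's strand. DNAJA1 is read from chr9:33025023-33025272 on the plus strand, CHORDC1 from chr11:90223050-90223299 on the minus strand and HSPH1 from chr13:31162389-31162638 on the minus strand.
DNAJA1: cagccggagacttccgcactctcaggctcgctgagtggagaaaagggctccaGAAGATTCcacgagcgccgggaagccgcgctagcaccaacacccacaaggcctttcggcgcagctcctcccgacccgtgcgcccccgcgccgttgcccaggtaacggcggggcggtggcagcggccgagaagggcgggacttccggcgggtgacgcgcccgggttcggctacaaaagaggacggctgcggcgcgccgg
CHORDC1: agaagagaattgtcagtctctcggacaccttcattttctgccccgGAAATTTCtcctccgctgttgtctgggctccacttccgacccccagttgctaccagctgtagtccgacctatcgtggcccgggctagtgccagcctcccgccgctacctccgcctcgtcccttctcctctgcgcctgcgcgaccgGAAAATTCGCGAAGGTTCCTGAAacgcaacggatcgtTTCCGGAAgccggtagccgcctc
HSPH1: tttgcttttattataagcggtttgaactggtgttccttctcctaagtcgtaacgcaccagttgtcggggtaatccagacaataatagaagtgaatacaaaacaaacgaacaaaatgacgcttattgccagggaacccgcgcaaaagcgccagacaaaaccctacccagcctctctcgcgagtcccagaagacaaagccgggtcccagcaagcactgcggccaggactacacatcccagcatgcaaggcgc
The window of DNAJA1 holds 1 match, which begins at position -198 from the start, and that of CHORDC1 holds 6, of which 4 overlap each other. No match lies in the window of HSPH1. Of the 7 heat shock genes named here, DNAJA1 and CHORDC1 were the 2 with a match, and the windows of HSPE1, UNC45A, TRAP1 and DNAJA3 held none. Of all 35116 promoter windows of the same length, 11.6% hold at least 1 match. Among the 24 genes named as lower by size or by a call, 22 have a promoter entry and 2 of them hold a match, and among the 12 highest these numbers are 10 and 2. A match is a sequence description and was not tested as a binding site.

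In the whole list of 42 measured heat shock proteins and co-chaperones, 3 genes were higher and 6 lower at an unadjusted p under 0.05, with a median difference of -0.02 that turned to 0.01 with median centring. Among all genes 3.29% were higher and 7.31% lower. HSPE1, the co-chaperonin of mitochondria, was at 9.68 and 9.52 and then at 8.57 and 9.09 (difference -0.77, standard error 0.20). The higher members were UNC45A, a chaperone for myosin, at 0.35 on 1 probe set and 0.01 on another of nearly the same level, and the mitochondrial chaperones TRAP1 and DNAJA3, both at 0.30. Their standard errors were 0.12 to 0.13. Of 26 chaperones of the endoplasmic reticulum and genes of the unfolded protein response, 1 was higher and 4 lower. SSR1, a subunit of the translocon-associated complex, differed by -0.46, and HSP90B1, the HSP90 of that compartment, by -0.38 on its brighter probe set and -0.04 on the other, whereas HYOU1, its HSP110, differed by 0.27.

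Genes of glycolipid and fatty acid synthesis formed another part of the lower side. UGCG, the enzyme that makes glucosylceramide and so starts the synthesis of most glycosphingolipids, was at 10.14 and 10.04 in untreated cells and at 9.11 and 9.10 after 24 h on its brighter probe set. The difference was -0.98 (standard error 0.21) there and -1.17 (standard error 0.22) on the other, whose means were both under the filter level of 7.3, so that the second size is not exact. Both were called with adjustment over the 4 comparisons. ELOVL6, which elongates palmitate, was at 8.22 and 8.12 and then at 7.29 and 7.27, a difference of -0.89 (standard error 0.15). Its limma adjusted p was 0.346 for 24 h alone and 0.0272 over the 4 comparisons. ELOVL2, which elongates polyunsaturated fatty acids, differed by -0.66 (standard error 0.14) and was called there too.

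Of 17 sphingolipid enzymes, 5 were lower and 0 higher at an unadjusted p under 0.05, against 7.31% and 3.29% of all genes. The galactosyltransferases B4GALT6 and B4GALT5, which extend glucosylceramide to lactosylceramide, differed by -0.60 and -0.36, and ST3GAL5, which makes the ganglioside GM3 from it, by -0.59. ST3GAL5 was at 8.97 on both untreated arrays and at 8.32 and 8.44 after 24 h. ASAH1, the acid ceramidase, differed by -0.45. Thus the lower enzymes include those for successive steps from ceramide to GM3. The list's median relative to the untreated mean was -0.22 on the first 24 h array and -0.06 on the second, so the size depended on the array.

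Of 30 genes of cholesterol and fatty acid synthesis, 8 were lower and 0 higher, against 7.31% and 3.29% of all genes. In 13 both 24 h arrays lay below both untreated arrays and in 4 above, against 23.5% and 22.7% of all genes. SC5D, which acts late in cholesterol synthesis, was at 9.55 and 9.37 and then at 8.78 and 8.60 (difference -0.77, standard error 0.19). INSIG1, which holds the SREBP regulators in the endoplasmic reticulum and is itself one of their targets, was at 10.61 and 10.39 and then at 10.14 and 9.99 (difference -0.44, standard error 0.13), while its other probe sets differed by -0.21 and 0.16. INSIG2 differed by -0.49 at means under the filter level. The list's median was -0.15 with the brightest probe set of each gene and -0.07 when a gene's kept probe sets were averaged. It was -0.21 on replicate 1 and -0.06 on replicate 2.

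Several lower genes act on RNA or in nuclear transport, and they were set side by side here after their values were seen. SFPQ, a splicing factor of paraspeckles, was at 8.87 and 8.51 and then at 7.20 and 7.59, a difference of -1.29 (standard error 0.30). Its other probe sets differed by -1.18 and by -0.02, so its probe sets disagreed. PUS7, which converts uridine to pseudouridine in RNA, was at 8.44 and 8.45 and then at 7.50 and 7.37 (difference -1.01, standard error 0.28). EIF1AX, a factor of translation initiation, differed by -0.95 (standard error 0.19), and all 4 of its kept probe sets were lower at an unadjusted p under 0.05. The GTPase RAN, which powers transport through nuclear pores, was at 8.13 and 8.25 and then at 7.33 and 7.47 on 1 probe set, while its brighter one differed by -0.20 (standard error 0.17). The import receptor IPO7 differed by -0.77 on 1 probe set and by -0.08 on its brightest. Both were called with adjustment over the 4 comparisons on the dimmer probe set only.

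Among hnRNP proteins, which package nascent transcripts, 4 of 25 were lower and 0 higher, with a median of -0.18. Of all genes 7.31% were lower and 3.29% higher. SYNCRIP, HNRNPM and HNRNPU differed by -0.64, -0.59 and -0.45 (standard errors 0.17 to 0.23). Of 23 serine/arginine-rich splicing factors and their kinases, 4 were lower and 1 higher, with a median of -0.17. SRSF1 was at 10.34 and 10.41 in untreated cells and at 9.83 and 9.82 after 24 h, and SRSF7 at 11.18 and 11.24 and then at 10.68 and 10.80. SRSF4 was the higher member, at 0.32 (standard error 0.14). The medians of the hnRNP list were -0.28 and -0.11 on the 24 h arrays and -0.07 and 0.07 on the untreated arrays, and those of the splicing list were -0.15 and -0.20, against -0.03 and 0.03. For all genes the 24 h medians were -0.04 and 0.04.

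Other low genes are given here, and EGR1 among them is also counted below in the list of immediate-early regulators. EGR1, an immediate-early zinc finger transcription factor, was at 7.78 and 7.28 and then at 6.10 and 6.33. Its difference of -1.32 was the largest downward, but its standard error was also large, at 0.50, and the 24 h levels lie under the filter level. TRAK2, an adaptor that links mitochondria to kinesin, was at 10.33 and 9.93 and then at 8.94 and 9.19 (difference -1.06, standard error 0.25). MPHOSPH8, a reader of methylated histone H3 in the HUSH silencing complex, differed by -1.06 (standard error 0.33). SUB1, a transcription coactivator, differed by -1.01, while its 2 brighter probe sets differed by -0.31 and -0.18. DCPH1 was at 7.32 and 7.86 and then at 6.49 and 6.68. SLC38A6, a member of the amino acid transporter family SLC38, differed by -0.96 (standard error 0.15). SLC38A6 was at 7.74 and 7.76 and then at 6.62 and 6.96. Its limma adjusted p was 0.346 for 24 h alone and 0.0203 over the 4 comparisons.

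Other genes were called only under 1 of the alternatives, at smaller differences. ANXA4, a calcium-dependent membrane-binding annexin, was at 9.52 and 9.43 and then at 8.77 and 8.79 (difference -0.69, standard error 0.13), but its brighter probe set differed by -0.07. GPM6B, a membrane proteolipid of the nervous system and melanocytes, was at 10.34 and 10.29 and then at 9.72 and 9.57 (difference -0.67, standard error 0.14). The Golgi calcium and manganese pump ATP2C1 differed by -0.73 on 1 probe set and by -0.09 and -0.28 on brighter ones. The RNA-binding protein CELF2 differed by -0.62, ITIH5 by -0.58 and the BCL2 relative BCL2A1 by -0.55. PSMD12, a subunit of the proteasome lid, differed by -0.86 on 1 probe set and by -0.49 on the brighter one. NETO2, an auxiliary subunit of kainate receptors, differed by -0.91.

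**Figure D3:**
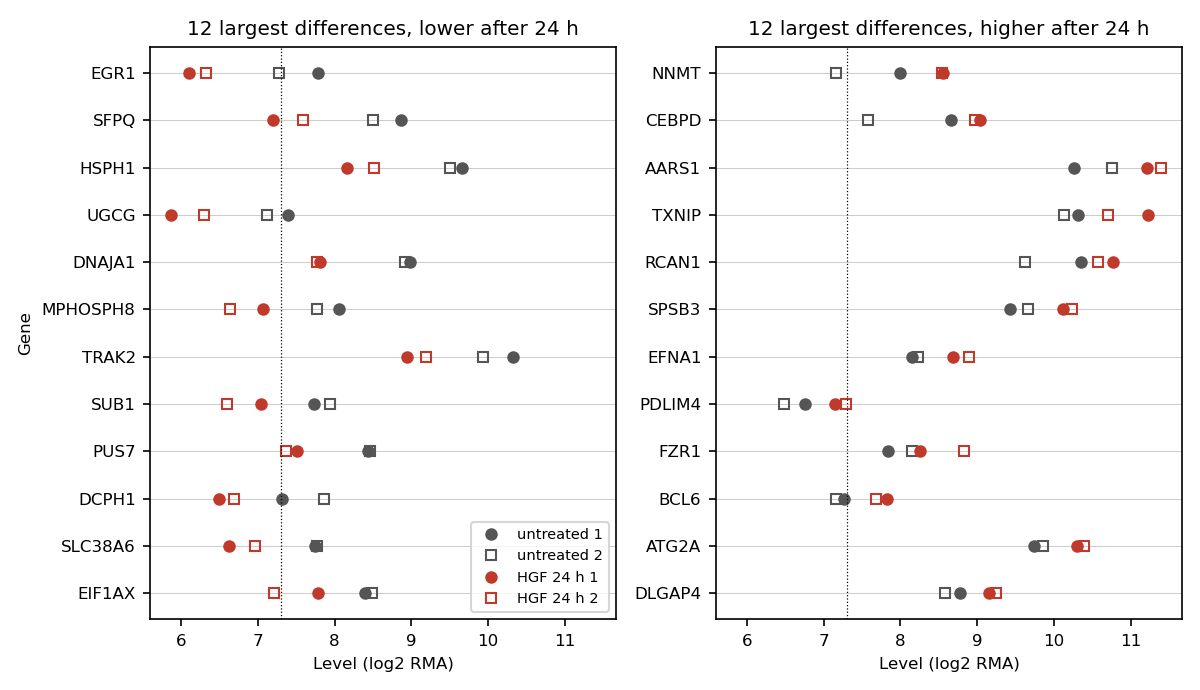
Levels (horizontal axis, log2 RMA value) on each of the 4 arrays for the 12 genes with the largest differences downward (left) and upward (right) after 24 h with HGF. Filled circles are replicate 1, open squares replicate 2, untreated arrays are grey and HGF 24 h arrays red. The dotted line is the filter level of 7.3. The untreated arrays of NNMT and CEBPD lie further apart than those of the lower genes, at 8.00 and 7.16 and at 8.65 and 7.58.

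On the upper side, the differences were smaller. The untreated duplicates of NNMT, CEBPD and RCAN1 lay further apart than those of any of the 12 lowest genes, and those of the other higher genes did not. NNMT, which methylates nicotinamide, had the largest difference. It was at 8.00 and 7.16 in untreated cells and at 8.56 and 8.55 after 24 h (difference 0.97, standard error 0.35), and its other probe set differed by 0.91. CEBPD, a C/EBP transcription factor of acute responses, was at 8.65 and 7.58 and then at 9.04 and 8.98 (difference 0.89, standard error 0.26). Its difference depended on the untreated array. It was 1.43 without untreated replicate 1, with a limma adjusted p of 0.0349 that rests on a single untreated array assumed to vary like the other groups, and 0.35 without untreated replicate 2, with an adjusted p of 0.680. CEBPD was the only probe set called when 1 array was left out. NNMT likewise differed by 1.39 and 0.55 without the one or the other. For both genes the gap between the untreated arrays was as large as the difference itself or close to it. AARS1, the alanyl-tRNA synthetase, was at 10.27 and 10.76 and then at 11.21 and 11.39, a difference of 0.79 (standard error 0.18), with an adjusted p of 0.0586 over the 4 comparisons, the lowest on the upper side among the 12.

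TXNIP, an inhibitor of thioredoxin that also limits glucose uptake, was at 10.31 and 10.13 and then at 11.23 and 10.70. Its 3 kept probe sets differed by 0.75, 0.69 and 0.65. RCAN1, a calcineurin inhibitor, was at 10.35 and 9.62 and then at 10.77 and 10.58 on 1 probe set, where the difference was 1.06 without untreated replicate 1 and 0.32 without replicate 2. The brighter probe set of RCAN1 differed by 0.64 (standard error 0.17). EFNA1, an ephrin ligand at the cell surface, was at 8.16 and 8.23 and then at 8.69 and 8.89 (difference 0.60, standard error 0.19). SPSB3, a SOCS-box adaptor of ubiquitin ligases, differed by 0.63 and FZR1, an activator of the anaphase-promoting complex, by 0.55, while the other probe sets of FZR1 differed by 0.03 and 0.15. The transcriptional repressor BCL6 differed by 0.54, the autophagy lipid transfer protein ATG2A by 0.54 and the scaffold DLGAP4 by 0.53, with 0.19 and 0.20 on its other probe sets. PDLIM4, a PDZ and LIM domain protein of actin stress fibres, differed by 0.59 at means under the filter level and by 0.08 and 0.23 on its brighter probe sets.

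The receptor of HGF was lower on all 3 of its kept probe sets. MET was at 9.38 and 8.86 in untreated cells and at 8.78 and 8.39 after 24 h on the brightest (difference -0.53, standard error 0.20, limma adjusted p = 0.404). The other probe sets differed by -0.73 and -0.36 (standard errors 0.21 and 0.18). For the 5 probe sets of HGF itself, none was kept by the filter. Of 27 measured genes of MET signalling, 1 was higher and 2 lower. PIK3R1, the regulatory subunit of phosphatidylinositol 3-kinase, differed by -0.65 (standard error 0.20), with both 24 h arrays below both untreated ones. CD44, a hyaluronan receptor that can act as a MET co-receptor, was the higher member, at 0.32 (standard error 0.12) on its brightest probe set, but its 6 kept probe sets ran from -0.20 to 0.34.

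Downstream of ERK, few regulators passed the unadjusted threshold at 24 h. Of 28 immediate-early transcription regulators 1 was higher and 2 lower, near the 3.29% and 7.31% of all genes. Besides EGR1 these were TSC22D1 at 0.40 and the nuclear receptor NR4A3 at -0.32. In 10 of the 28 both 24 h arrays lay below both untreated arrays and in 2 above, against 23.5% and 22.7% of all genes. Of 14 dual-specificity phosphatases, Sprouty genes and other feedback genes of ERK, 1 was lower, DUSP2 at -0.32 (standard error 0.14). In 7 of the 14 both 24 h arrays lay below both untreated arrays, and in 3 above. The median of that list was -0.15. It was -0.24 on HGF 24 h replicate 1 and -0.03 on replicate 2. Of 14 subunits, inhibitors and targets of NF-kB, 4 were lower. TNFAIP3, the A20 protein that ends NF-kB signalling, was at 9.47 and 9.00 and then at 8.61 and 8.33 (difference -0.76, standard error 0.18), BCL2A1 differed by -0.55 and the subunit NFKB1 by -0.31. CXCL8 differed by -0.48 at means under the filter level, and reached that level only on the HGF 6 h arrays, at 7.53 and 7.59. In 7 others both 24 h arrays lay above both untreated arrays, and the list's median was 0.10, opposite in sign to the 4, and -0.01 without untreated replicate 2.

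Among genes of amino acid metabolism and tRNA charging, more were higher than lower. Of 29 measured targets of ATF4, the regulator of the amino acid response, 3 were higher and 0 lower. Among all genes 3.29% were higher and 7.31% lower. In 11 of the 29 both 24 h arrays lay above both untreated arrays and in 2 below, against 22.7% and 23.5% of all genes. NUPR1, a stress-induced chromatin protein, was at 10.82 and 10.50 and then at 11.14 and 11.02 (difference 0.42, standard error 0.18). MTHFD2, of mitochondrial folate metabolism, differed by 0.35 (standard error 0.13). The list's median was 0.15. Its medians on the 24 h arrays were 0.09 and 0.17 and on the untreated arrays 0.05 and -0.05. Of 17 aminoacyl-tRNA synthetases, 4 were higher and 1 lower. Besides AARS1, YARS1 was at 10.96 and 10.95 and then at 11.46 and 11.43 (difference 0.49, standard error 0.13), SARS1 differed by 0.37 and CARS1, which is in both lists, by 0.31. RARS1 was the lower one, at -0.28. The median of the synthetases was 0.03, so the higher values were those of single members.

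The other parts of the protein synthesis and energy machinery lay closer to their untreated levels. Of 50 cytosolic ribosomal proteins, 0 were higher and 0 lower, and their differences ran from -0.09 to 0.23. In the list of ribosome biogenesis factors and MYC targets, 6 of 35 were lower and 0 higher. The nucleolar proteins NOP16 and UTP20 differed by -0.51 and -0.46, and the RNA helicase DDX21 by -0.48. The median of that list was -0.20 on replicate 1 and 0.03 on replicate 2. Of 36 proteasome subunits 2 were lower, PSMD12 and PSMA3, and of 59 subunits of the respiratory chain and ATP synthase 1, the electron carrier CYCS at -0.35 (standard error 0.13). Of 28 glycolytic and hypoxia-induced genes 1 was higher and 2 lower, among them the glucose transporter SLC2A1 at -0.45 (standard error 0.16). Of 21 genes of the mTOR pathway, the cap-binding protein EIF4E differed by -0.42 and the autophagy kinase ULK1 by 0.33.

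**Figure D4:**
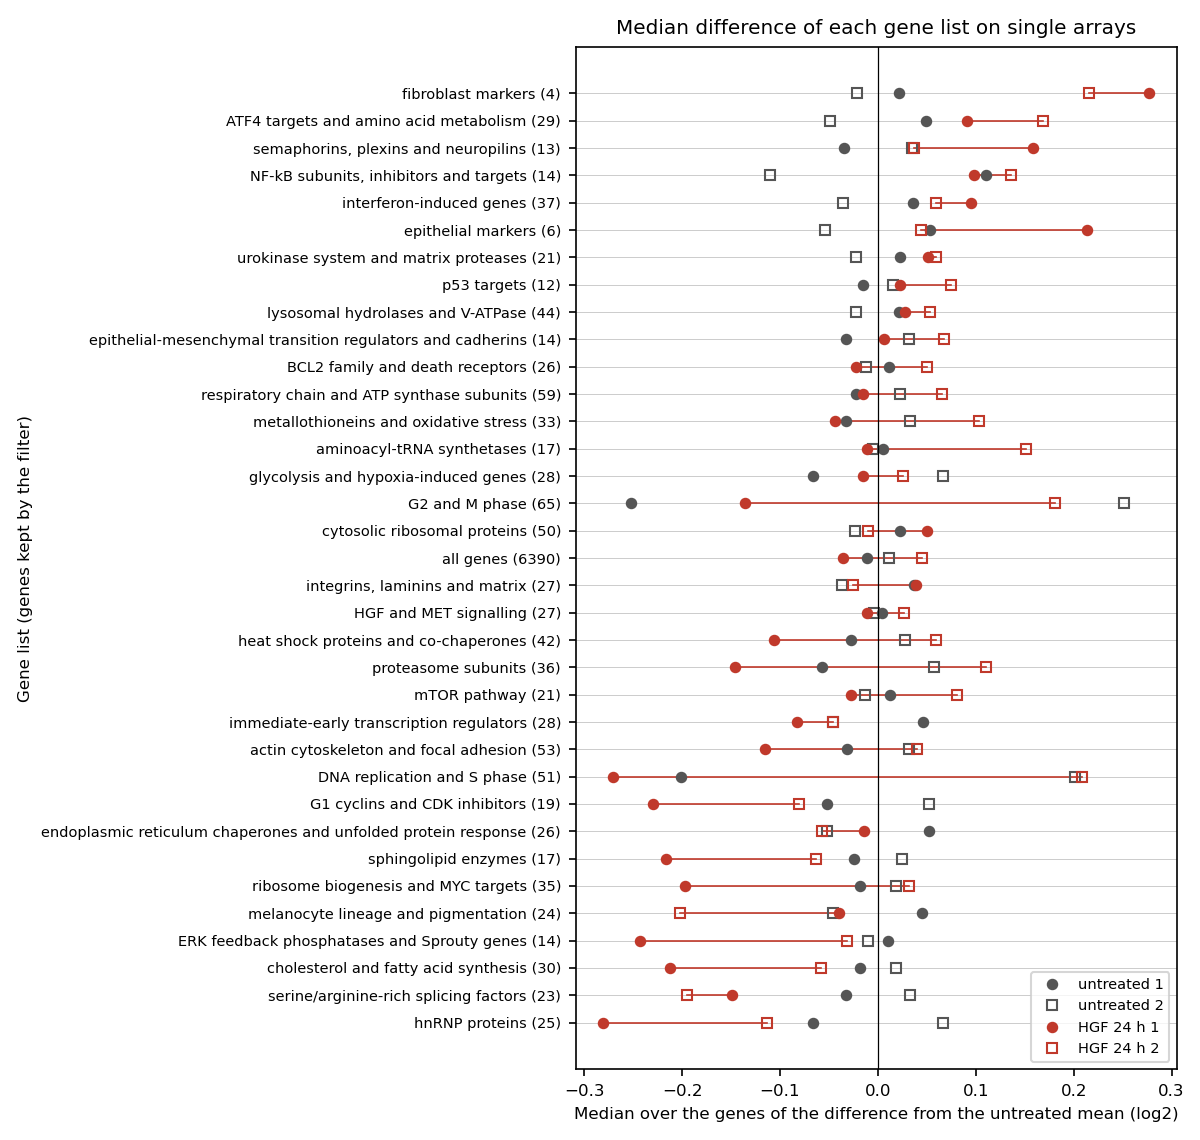
Median over the genes of each list of the difference from the untreated mean (horizontal axis, log2) on the 2 untreated arrays in grey and the 2 HGF 24 h arrays in red, with circles for replicate 1 and squares for replicate 2. Lists are ordered by the median difference and the number of genes kept is in brackets. The hnRNP and splicing factor lists lie lowest, and in the S phase list replicate 1 lies below replicate 2 in both conditions, at -0.20 and 0.20 untreated and -0.27 and 0.21 after 24 h.

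Counts of cell cycle genes stand beside the shares over all genes, of which 3.29% were higher and 7.31% lower. Of 19 G1 cyclins, CDK inhibitors and E2F factors, 4 were lower and 0 higher. SKP2, the ubiquitin ligase subunit that marks the CDK inhibitor p27 for degradation, was at 8.86 and 8.97 and then at 8.16 and 8.39 (difference -0.64, standard error 0.18). TFDP1, the partner of E2F factors, differed by -0.51 (standard error 0.21) and E2F3 by -0.34. CCNE2, cyclin E2, differed by -0.71 at means under the filter level. Of 51 genes of DNA replication 3 were lower and 0 higher, which are smaller shares than those of all genes. One of the lower genes was DBF4, the activator of the CDC7 kinase, at -0.56 (standard error 0.17). For the G2 and M phases, 0 of 65 genes were higher and 0 lower. The medians of the G2 and M list were -0.25 and 0.25 on the untreated arrays and -0.14 and 0.18 on the 24 h arrays. In both proliferation lists the duplicates thus differed from each other by more than the conditions did.

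Apoptosis genes differed in both directions. Of 26 members of the BCL2 family, death receptors and related genes, 2 were higher and 5 lower, against 3.29% and 7.31% of all genes. PMAIP1, the BH3-only protein NOXA, was at 8.82 and 9.10 and then at 8.05 and 8.27 (difference -0.80, standard error 0.30), and BNIP2 differed by -0.58. BNIP1 differed by 0.46 (standard error 0.13) and the tumour necrosis factor receptor TNFRSF1A by 0.37. Of 12 measured p53 targets 1 was higher and 2 lower. PMAIP1 is one of the lower ones, TIGAR, a regulator of glycolysis, was the other at -0.49, and the DNA repair gene DDB2 was higher by 0.35.

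For cell movement and adhesion the counts are to be read against the 3.29% of all genes that were higher and the 7.31% that were lower. Of 53 actin and focal adhesion genes, 4 were higher and 6 lower. CALD1, the actin-binding caldesmon, was at 9.35 and 9.41 and then at 8.91 and 8.60 (difference -0.62, standard error 0.19). CORO1C, a coronin, differed by -0.49 and PFN2, a profilin, by -0.42. WASF2, which activates actin branching through ARP2/3, was at 9.50 and 9.86 and then at 10.03 and 10.16 (difference 0.42, standard error 0.14), and the kinase LIMK2 and the integrin-linked talin TLN1 differed by 0.30 and 0.31. Of 27 integrins, laminins and matrix genes 1 was higher, ITGA3 at 0.39 (standard error 0.12). Of 21 genes of the urokinase system and matrix proteases, 1 was higher and 1 lower. PLAT, tissue plasminogen activator, differed by 0.32. MMP2, a gelatinase, was at 9.39 and 9.59 and then at 8.87 and 9.37, and its difference of -0.37 was -0.13 without HGF 24 h replicate 1 and -0.62 without replicate 2. Of 14 regulators of epithelial-mesenchymal transition and cadherins, 0 were higher and 0 lower, and the largest differences were those of LOXL2 at 0.33 (standard error 0.19) and CTNNA1 at 0.26. The dimmer probe sets of CTNNA1, an alpha-catenin, differed by 0.45 and 0.36. Of 13 semaphorins, plexins and neuropilins, SEMA4C was higher by 0.33.

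The cells had most marks of the melanocyte lineage in both conditions. Of 29 such genes 24 were kept, and MLANA, TYR, TYRP1, PMEL, MITF and SOX10 lay above the 96th percentile of all probe sets in untreated cells. TRPM1, KIT, SLC45A2, SOX5 and OCA2 were not kept and lay at the 17th to the 51st percentile. PAX3, MC1R and BCAN lay at the 60th to the 61st. After 24 h, 1 of the 24 was higher and 5 lower. TYR, the rate-limiting enzyme of melanin synthesis, was at 12.17 and 12.10 and then at 11.65 and 11.64, a difference of -0.49 (standard error 0.12). MITF, the master regulator of the lineage, was at 11.16 and 11.19 and then at 11.01 and 10.63 (difference -0.35, standard error 0.14). MYO5A, the motor that carries melanosomes, differed by -0.47, S100B by -0.51 and GPM6B by -0.67. SOX10 differed by 0.17 and the receptor ERBB3 by 0.33. The median of the list was -0.14, with -0.04 and -0.20 on the 24 h arrays. Of 44 lysosomal hydrolases and V-ATPase subunits 2 were higher and 2 lower. ATP6V1C1, a subunit of the proton pump, differed by -0.58, and the lysosomal hydrolases NAGLU and SGSH by 0.33 and 0.29.

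Most markers of other cells did not pass the filter. Of 13 leukocyte markers 0 were kept, of 23 epithelial markers 6 and of 19 fibroblast markers 4. The kept ones include the keratin KRT18, at an untreated mean of 9.50, the epithelial SFN at 8.23 and the matrix proteoglycan DCN at 8.32. The median difference of the kept epithelial markers was 0.09, with the splicing regulator ESRP1 lower, at -0.40, and 0 higher. That of the kept fibroblast markers was 0.25, with the matrix protein FBLN1 higher, at 0.35. In 3 of the 4 both 24 h arrays lay above both untreated arrays, against 22.7% of all genes. The untreated means of FBLN1 and THY1, 6.96 and 7.14, lay under the filter level. Fibroblast markers that were not kept differed in both directions, among them LUM by -0.77, ACTA2 by -0.28, COL3A1 by 0.24 and MFAP5 by 0.23. The summed log2 level of the leukocyte markers was 77.7 and 76.7 on the untreated arrays and 79.2 and 77.2 on the 24 h arrays. That of the epithelial markers ran from 138.7 to 142.7 and that of the fibroblast markers from 116.0 to 118.4 over the 4 arrays. The part of these cells in the differences was not tested. The epithelial defining genes CDH1 and EPCAM had untreated means of 4.76 and 3.67. Of 37 interferon-induced genes 2 were higher and 0 lower, with TAP1 at 0.35 and GBP2 at 0.37. Of 33 metallothioneins and genes of oxidative stress, NNMT was higher and GCLC, of glutathione synthesis, lower by -0.36.

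The genes with the largest differences at 24 h were followed through the earlier times, where 24 h arrays enter both comparisons, so that the comparison with 6 h is not independent of the choice of genes. Between 24 and 6 h, limma called 707 probe sets higher (6.95%) and 1276 lower (12.5%) at 24 h, and with median centring 1003 and 1151. Between 24 and 1 h it called 1 higher (0.00983%) and 0 lower (0%). Of the 25 probe sets named above as lower than untreated, 21 were called lower at 24 h than at 6 h, and of the 12 higher ones 8 were called higher. Against 1 h none of them was called. For 16 of the 29, among them SFPQ, DNAJA1, HSPH1, RAN, ELOVL6, AARS1 and RCAN1, the call against 6 h held whichever array of the 2 times was left out and with median centring. EGR1, MPHOSPH8, TRAK2, ATP2C1, ELOVL2 and DLGAP4 lost it without any 1 of the 4 arrays.

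SFPQ was at 8.30 and 8.33 after 1 h, at 10.16 and 10.18 after 6 h and at 7.20 and 7.59 after 24 h, so that its level passed from above to below the untreated level of 8.87 and 8.51 (24 against 6 h -2.78, standard error 0.30, adjusted p = 0.000952 from limma). DNAJA1 was at 8.35 and 8.43, then at 9.76 and 9.66 and then at 7.81 and 7.77 (24 against 6 h -1.92, standard error 0.21, adjusted p = 0.000952 from limma). RAN, at 7.86 and 7.83, then at 8.90 and 8.99 and then at 7.33 and 7.47, and PUS7, at 7.89 and 7.88, then at 9.46 and 9.27 and then at 7.50 and 7.37, had the same order of levels. In these genes the 6 h level was the highest of the 4 conditions and the 24 h level the lowest. ELOVL6 lay near 7.3 both after 1 h, at 7.24 and 7.34, and after 24 h, and at 8.40 and 8.27 after 6 h, close to its untreated level. The 24 h minus 1 h difference of ELOVL6 was -0.01 with a standard error of 0.15.

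On the upper side the order was reversed for several genes. AARS1 was at 10.41 and 10.59 after 1 h, at 9.60 and 9.71 after 6 h and at 11.21 and 11.39 after 24 h (24 against 6 h 1.65, standard error 0.18, adjusted p = 0.000952 from limma). RCAN1 was at 10.36 and 9.86, then at 9.27 and 8.99 and then at 10.77 and 10.58 (24 against 6 h 1.55, standard error 0.24, adjusted p = 0.00273 from limma). EFNA1 lay between 8.16 and 8.36 on all arrays of the untreated, 1 h and 6 h cells and at 8.69 and 8.89 after 24 h, and its difference from 6 h, 0.53, was not called (adjusted p = 0.0748 from limma). MET was at 8.81 and 8.64 after 1 h and at 8.94 and 8.72 after 6 h, and differed between 24 and 6 h by -0.24 (standard error 0.20).

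**Figure D5:**
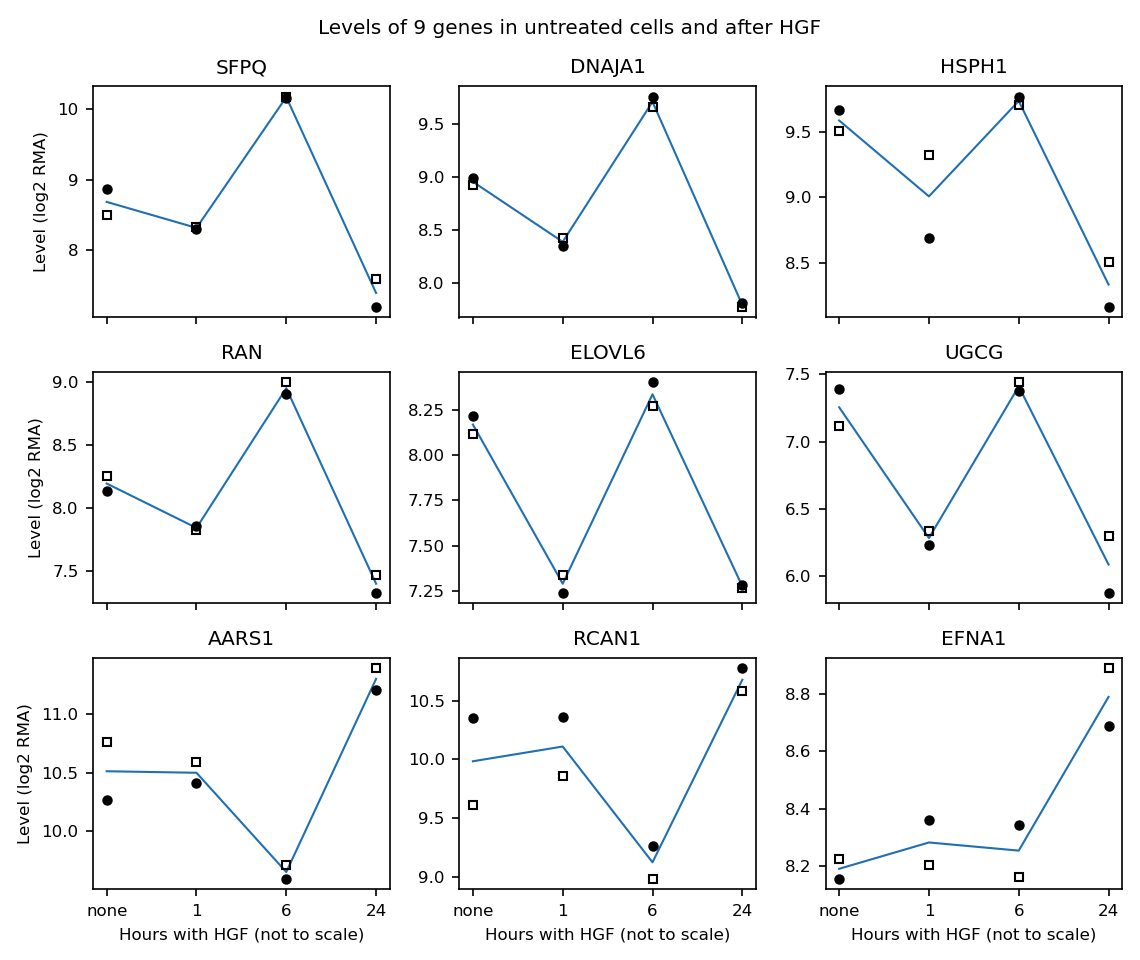
Levels (vertical axes, log2 RMA value, each with its own range) of 9 genes by time with HGF, from none to 24 h (horizontal axes, 4 equally spaced conditions). Circles are replicate 1, squares replicate 2 and the line joins the means. SFPQ, DNAJA1 and RAN are highest after 6 h and lowest after 24 h, AARS1 and RCAN1 are lowest after 6 h and highest after 24 h, and EFNA1 stands apart only after 24 h.

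Across the 10 arrays the medians lay between 6.81 and 6.88. For ACTB, the level of the 3' control minus that of the 5' control, a measure of RNA integrity, was -0.30 and -0.34 on the untreated arrays and -0.09 and -0.33 on the 24 h arrays, and that of GAPDH was -0.01 and -0.01 and then -0.14 and -0.02. HGF 24 h replicate 1 had the highest ACTB value of the 10 arrays, while its GAPDH value lay within their range of -0.21 to -0.01. The part of RNA integrity in the differences was not tested. Without that array 617 probe sets were higher and 657 lower at an unadjusted p under 0.05, without HGF 24 h replicate 2 165 and 739, without untreated replicate 1 96 and 439 and without untreated replicate 2 276 and 455.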

How the data were processed

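RNA of MDA-MB-435 cells was hybridized to Affymetrix hgu133a arrays. Probe data were summarized and normalized by the authors with RMA, and their deposited values are log2 levels. Presence calls, with which the authors excluded undetected probe sets, were not used here. In their place, probe sets other than the 68 controls were kept at a level of at least 7.3 on at least 2 of the 10 arrays. Symbols came from the platform annotation, in which 19065 probe sets had 1 symbol, 1043 several and 2107 none; those without a single symbol were tested but not named. The brightest kept probe set represents a gene. Signal near background limits low genes, and the number of arrays limits precision.

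Group means were fitted over the 10 arrays with limma 3.58.1 in R 4.3.3 (5 residual degrees of freedom, prior 5.94 degrees of freedom, prior SD 0.144), with Benjamini-Hochberg adjustment over the kept probe sets of a comparison. The median standard error was 0.144. Mulcom was rebuilt from its equations (m from 0.1 to 0.5, t from 1 to 3, 100 permutations, FDR under 0.05), which selected m = 0.5 and t = 2.2. The procedures were tested on simulated data.

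Genes were named by a rule: the 12 largest differences each way at an unadjusted p under 0.05 whose arrays do not overlap between conditions; all genes called by the adjustment over 4 comparisons, without the ITGB4 arrays or by Mulcom; at most 4 members each way of each of 35 gene lists at an unadjusted p under 0.05, or the 2 largest; MET and HGF; and the melanocyte and epithelial markers. The compared conditions, lists and rule were chosen with earlier results of these data known, so counts over lists describe the members and were not tested. The alternatives were other filters, scalings, probe set summaries, priors and sources of the spread, the replicate number as a block, Mulcom, and leaving out each array. Promoters were those of RefSeq (GRCh38.p14). Illumina arrays, which the study also ran on these RNAs, were not analysed here.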

Additional observations from a re-analysis of the deposited data

Results flagged for a closer look

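For the genes with the largest differences from untreated cells, the level after 24 h with HGF was set against the level after 6 h, and 29 probe sets differed by limma. None of the comparisons with 1 h was called, which with duplicates does not show equal levels. The direction of the lower genes was downward from 6 to 24 h for EGR1 (-1.84), SFPQ (-2.78), HSPH1 (-1.40), DNAJA1 (-1.92), MPHOSPH8 (-1.32), TRAK2 (-0.81), SUB1 (-1.43), PUS7 (-1.93), EIF1AX (-0.92), NETO2 (-1.69), PSMD12 (-1.37), RAN (-1.55), IPO7 (-1.03), BCL2A1 (-1.24) and ITIH5 (-0.63). It was also downward for the lipid genes ELOVL6 (-1.06), ELOVL2 (-0.44) and UGCG (-1.33 and -0.92 on its probe sets), the transporter SLC38A6 (-0.68) and the pump ATP2C1 (-0.48). The higher genes were upward from 6 to 24 h for AARS1 (1.65), RCAN1 (1.55), SPSB3 (1.17), ATG2A (1.15), TXNIP (1.00), FZR1 (0.83), BCL6 (0.80) and DLGAP4 (0.44). The same 24 h arrays chose these genes, so the values are not independent of their choice. The cause of these differences was not tested.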

How the results depend on the processing

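Without the filter 538 probe sets were higher and 1243 lower at an unadjusted p under 0.05, and with kept probe sets averaged within a gene 500 genes were lower. Limma called 10 without the ITGB4 arrays and 17 with adjustment over the 4 comparisons, and Mulcom 5, in place of 0. Leaving out 1 array gave 0 to 1 called, 96 to 617 higher and 439 to 739 lower. Fewer arrays and more probe sets tested are part of these settings, and otherwise the cause was not tested. The share of higher ones among those at an unadjusted p under 0.05 was 28.3%, 37.9% with median centring and 34.5% with cyclic loess. With the replicate block 0 were called, 425 higher and 946 lower. The labels give these numbers no meaning. Deviations of same-numbered arrays correlated at 0.45 between untreated and 24 h and above 0.1 in 8 of 10 pairs of groups, but at -0.14 and -0.11 for 1 h with 24 h and with ITGB4, so that the numbers were not taken to pair the samples. Several gene list medians near 0 changed sign, such as that of MET signalling from -0.02 to 0.01 with median centring. No named gene changed direction under any alternative, 2199 of the values stayed on their side of the threshold and 27 passed it. Most named genes were chosen with arrays that do not overlap between conditions. For those, leaving out 1 array could not turn the direction, so its constancy there was fixed by the choice. Against 6 h, 39 of the values lost their call under alternatives chosen after seeing the data. Sizes of differences at means under 7.3 are not exact. Of the 25 probe sets named as lower by size or by a call, 11 had a 24 h mean under that level.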
